A study of Mus musculus with 22 samples.

Results

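Amino acid transporters were read in 22 whole pancreas libraries from C57Bl/6 dams and newborn pups, measured by TempO-Seq, which joins paired probes on their target RNA and counts the joined products by sequencing. The members were all probes whose gene symbol belongs to the solute carrier families Slc1a, Slc3a, Slc6a, Slc7a, Slc15a, Slc36a, Slc38a or Slc43a, which gave 103 of the 30146 probes and 66 of the 21450 gene symbols. Of the 66 genes, 40 had 1 probe and 26 had more than 1. Females received corn oil (control) or TCDD (a chlorinated dioxin and ligand of the aryl hydrocarbon receptor) under the skin at 20 ng/kg per day, given in 2 injections per week from before mating until birth, and all tissue was taken on the day of birth. The labels name no modified allele in any group, and the dosing of pups was through the dam.

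The labels gave 4 dams to each treatment, 3 control and 4 TCDD pups of the female sex, and as many of the male sex. Every one of the 7 litters sampled gave a brother and a sister. The libraries were also grouped by 2 measured genes, Afp (a fetal and newborn protein) and Pnlip (pancreatic lipase, a digestive enzyme of the mature gland). A library was placed in the newborn type where summed Afp was above summed Pnlip, which held for 14 libraries, and in the adult type otherwise, which held for 8. Afp lay between 468 and 1487 CPM (counts per 1000000 counts of the library) in the newborn type and between 0 and 1.25 in the adult type, and Pnlip between 22.3 and 91.6 and between 40765 and 48925, so no library was near the boundary. The stage label of 8 libraries went against this grouping: control dams 4 and 2 and TCDD dams 10 and 6 were of the newborn type, and the adult type held TCDD female pup 6 along with TCDD male pups 11, 8 and 10. The control label was carried by 8 newborn type and 2 adult type libraries, and the TCDD label by 6 and 6. Whether labels, tissue or handling account for this was not tested, and the labels were used as given.

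Amino acid transporters move amino acids across the plasma membrane and the lysosomal membrane. Acinar cells of the exocrine pancreas make large amounts of digestive enzymes and take up amino acids to do so. Some transporters exchange one amino acid for another, and these include the light chains of the SLC7 family that need the heavy chain Slc3a2 to reach the surface. Others, such as the SLC38 and SLC6 families, use the sodium gradient to accumulate their substrates. When amino acids run short, the kinase Gcn2 and the transcription factor Atf4 raise many of these transporters together with enzymes of amino acid synthesis.

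Library totals ranged from 11223816 to 34911410 counts. A few abundant probes took a large part of them: the 20 most abundant probes held 47.1% to 59.6% of the counts in newborn type libraries and 69.8% to 74.7% in adult type libraries. Levels are therefore given as CPM scaled by TMM (trimmed mean of M-values), whose factors were 1.22 to 1.87 in the newborn type and 0.355 to 0.582 in the adult type. The scaling decides the sign of many class differences. With TMM the median of all 17676 probes past the low-count filter was -0.20 (log2, adult type minus newborn type), with DESeq2 size factors -0.24, with CPM that left out the 20 most abundant probes -1.235, and with CPM of the total count -1.99. Differences below are also stated relative to this median. The newborn and adult types were defined by 2 genes of the same libraries, so their differences are described and not tested. A probe's count depends on its own efficiency, so levels of different genes are not compared except as shares and ratios of counts. Of the cell type markers chosen for the gland, the acinar genes summed to 40350 to 77250 TMM-scaled CPM in the newborn type and to 315660 to 508030 in the adult type, with 8 of 10 higher and apart (every adult type library above every newborn type library). The acinar list holds Pnlip, which defined the classes, so its separation comes from the grouping. Pnlip had 8.16 to 32.0 and 42309 to 66849, and it is counted among the higher acinar markers here and with the total count. Mesenchymal markers summed to 879 to 1335 and 73.8 to 187 (5 of 6 lower and apart), duct markers to 292 to 402 and 63.6 to 135 (3 of 7), beta cell markers to 569 to 1189 and 189 to 576 (4 of 7), and endothelial markers to 21.5 to 37.2 and 8.09 to 17.96 (1 of 5). Liver markers summed to 197 to 571 and 7.70 to 48.2 (3 of 5 lower and apart). With the total count, 4 of 10 acinar markers were higher and apart and 1 lower, and the number lower was 6 of 6 mesenchymal, 4 of 7 duct, 6 of 7 beta cell, 5 of 5 endothelial and 5 of 5 liver markers. Of all probes, 8.18% were higher and 11.2% lower with TMM, and 0.39% and 64.9% with the total count. The part of these shifts in the transporter values was not tested, and in whole tissue fewer cells of a type and less RNA per cell cannot be told apart.

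Of the 103 member probes, 52 probes of 39 genes passed the filter and 51 did not, of which 3 were at 0 in every library. For 27 genes no probe passed, and the highest count of any of them in a library was 44, for the intestinal peptide transporter Slc15a1. They included Slc1a1, Slc1a2, Slc1a6, Slc1a7, Slc3a1, Slc6a2, Slc6a3, Slc6a5, Slc6a7, Slc6a11, Slc6a14, Slc6a16, Slc6a17, Slc6a18, Slc6a19, Slc6a21, Slc7a9, Slc7a12, Slc7a13, Slc7a15, Slc15a1, Slc15a3, Slc15a5, Slc36a2, Slc36a3 and Slc38a8. The list holds the neutral and cystine carriers of kidney and gut (Slc6a19, Slc7a9 with Slc3a1) and several neurotransmitter carriers of the nervous system. All member probes together took 0.0368% to 0.0553% of the counts in newborn type libraries (median 0.0442%) and 0.0236% to 0.0379% in adult type libraries (median 0.0254%). Outside the 20 most abundant probes the shares overlapped, at 0.0832% to 0.105% and 0.0884% to 0.126%.

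How many transporters were higher or lower in the adult type depended on the scaling. On the TMM scale, 18 of the 52 member probes (34.6%) were higher in every adult type library than in any newborn type library, where 8.18% of all probes were, and 3 (5.77%) were lower, where 11.2% of all probes were. With CPM of the total count, 0 member probes were higher and apart (0.39% of all probes), and 14 (26.9%) were lower and apart (64.9% of all probes). Without the 20 most abundant probes of each library, 5 (9.62%) were higher and apart (1.17% of all probes) and 7 (13.5%) were lower (40.3% of all probes). The median member probe stood at 0.53 on the TMM log2 scale and at -1.30 with the total count, in each case above the median of all probes. Counted by gene and relative to the median probe, 14 of 39 member genes were more than 1 log2 unit above it, against 11.8% of all genes, and 10 were more than 1 log2 unit below it, against 23.7%. With the 14 libraries whose stage label goes with Afp and Pnlip, 18 member probes were higher and apart (12.3% of all probes) and 4 were lower (16.2% of all probes). The 16 members with the highest levels or the widest separation are described by name, with their sign under the 4 scalings.

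**Figure D1:**
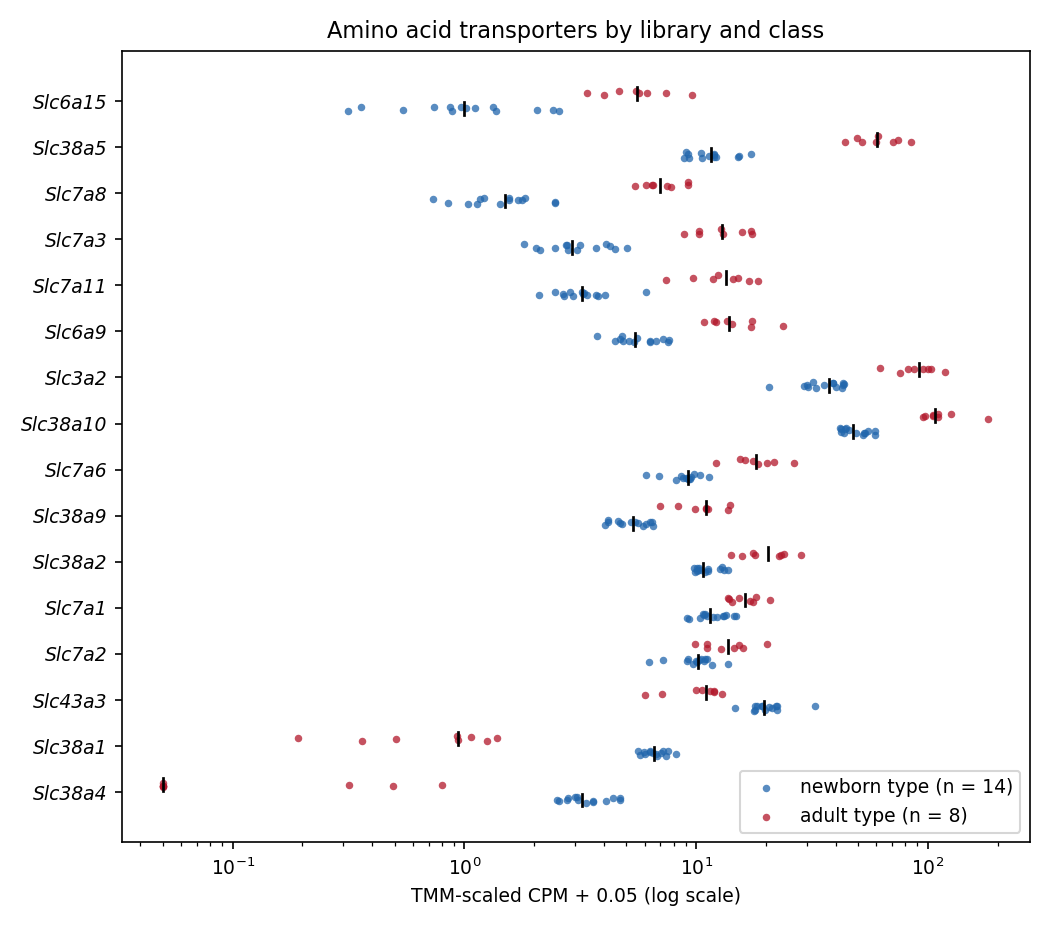
Level of each named transporter in every library (x axis, TMM-scaled CPM plus 0.05 on a log scale; y axis, gene), with newborn type libraries in blue (n = 14), adult type libraries in red (n = 8) and black bars at the medians. The classes do not overlap for Slc38a5, Slc7a8, Slc7a3, Slc7a11, Slc6a15, Slc3a2, Slc38a10, Slc38a2, Slc38a9, Slc6a9 and Slc7a6, which are higher in the adult type. Nor do they overlap for Slc38a1, Slc38a4 and Slc43a3, which are lower, while Slc7a1 and Slc7a2 overlap.

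Among transporters of small neutral amino acids and glutamine, Slc38a5 and Slc38a1 went in opposite directions. Slc38a5, a sodium and proton coupled carrier of glutamine, asparagine, serine and histidine, had a lowest, median and highest level of 8.84, 11.6 and 17.3 TMM-scaled CPM in the newborn type and of 43.7, 60.2 and 84.6 in the adult type. The classes did not overlap, the medians differed 5.20-fold, and the difference was 2.59 (log2) relative to the median probe. Its sign was the same under all 4 scalings, and its other 3 probes past the filter were also higher and apart on the TMM scale. Slc38a1, a sodium coupled carrier of alanine and glutamine, had 5.57, 6.55 and 8.13 in the newborn type and 0.141, 0.886 and 1.34 in the adult type, where it rested on 1 to 10 counts per library. It was 7.40-fold lower by the medians, and lower and apart under all 4 scalings.

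Slc38a4, a sodium coupled carrier of neutral amino acids whose gene is imprinted, had 2.46, 3.16 and 4.65 TMM-scaled CPM in the newborn type. In the adult type 5 of 8 libraries had a count of 0 and the others had 2, 3 and 5 counts, which gave a highest level of 0.749. A count of 0 allows up to 3 counts, or 0.304 to 0.467 TMM-scaled CPM in these libraries, so no fold is given for it. Slc38a2, another carrier of the system A type and one that cells raise when amino acids are scarce, went the other way on the TMM scale, at 9.75, 10.6 and 13.7 in the newborn type and 14.1, 20.4 and 28.3 in the adult type. Its sign depended on the scaling: it was 0.84 (log2) higher with TMM and also higher with DESeq2 size factors, but lower with both CPM scales, at -1.03 with the total count. Relative to the median probe it was 1.04 higher. In the mouse RefSeq annotation (GRCm38.p6), Slc38a1, Slc38a2 and Slc38a4 are consecutive genes on chromosome 15, so neighbours with the same kind of substrate differed in direction on the TMM scale.

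Ratios of 2 members within a library need no scaling. The Slc38a5 to Slc38a1 count ratio was 1.33 to 2.66 in the newborn type (median 1.76) and 32.6 to 502 in the adult type (median 77.25), with few Slc38a1 counts behind the adult values. Slc38a2 over Slc38a1 was 1.31 to 2.18 and 10.5 to 201. Slc38a5 over Slc38a2 was 0.661 to 1.40 and 2.50 to 3.78, so Slc38a5 also gained on a carrier that was itself higher on the TMM scale. The classes were apart for all 3 ratios.

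Slc38a10, an SLC38 member that is less studied than the others, and Slc38a9, the lysosomal arginine sensor that acts on mTORC1, were higher on the TMM scale. Slc38a10 had 41.7, 47.4 and 59.4 in the newborn type and 95.6, 108 and 183 in the adult type, and its second probe was also apart. Slc38a9 had 3.99, 5.30 and 6.48, and 6.96, 10.95 and 13.9. Both were lower with CPM of the total count, at -0.64 and -0.86 (log2), and Slc38a9 was also lower without the 20 most abundant probes, at -0.02. Relative to the median probe the differences were 1.43 and 1.21. The glutamine exchanger Slc1a5 and the alanine, serine and cysteine exchanger Slc1a4 overlapped between the classes, at 4.68 to 9.81 and 4.56 to 20.6 for Slc1a5 and 0.682 to 2.30 and 0.937 to 5.20 for Slc1a4. The lysosomal glutamine exporter Slc38a7 (1.61 to 4.34 and 2.06 to 8.02), the system N carrier Slc38a3 (2.50 to 5.63 and 3.89 to 8.16), Slc38a6 (1.57 to 2.80 and 0.592 to 1.74) and Slc38a11 (0.341 to 4.27 and 0 to 0.749) overlapped as well.

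**Figure D2:**
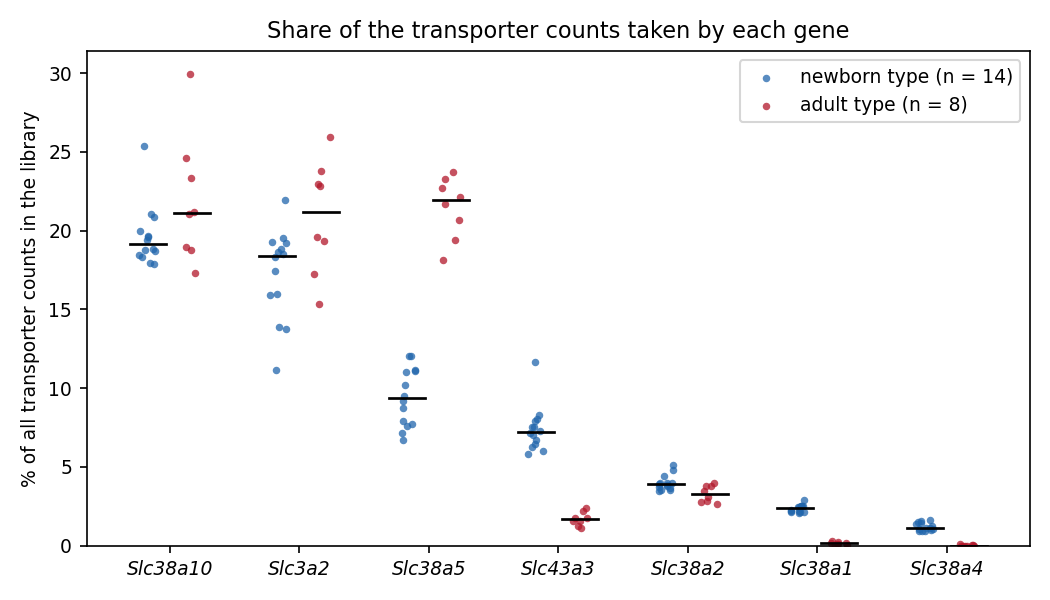
Share of all transporter counts in a library taken by all probes of a gene (y axis, %; x axis, gene), for newborn type (blue, n = 14) and adult type libraries (red, n = 8), with black bars at the medians. The share of Slc38a5 is 6.72% to 12.1% in the newborn type and 18.1% to 23.7% in the adult type, while Slc43a3, Slc38a1 and Slc38a4 have smaller shares in the adult type.

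The share that each gene took of all transporter counts in its library is also free of scaling. Slc38a5 took 6.72% to 12.1% in the newborn type and 18.1% to 23.7% in the adult type. Slc43a3 took 5.795% to 11.6% and 1.11% to 2.38%, and Slc38a1 took 2.10% to 2.92% and 0.0199% to 0.267%. The shares of Slc38a10 (17.9% to 25.4% and 17.3% to 29.9%) and of the heavy chain Slc3a2 (11.2% to 21.95% and 15.3% to 25.9%) overlapped. The plot of shares shows that Slc38a10, Slc3a2 and Slc38a5 together took most of the transporter counts of the adult type, with medians of 21.1%, 21.2% and 21.9%. A share sums all probes of a gene and depends on their number and efficiency, so it does not rank the RNA levels of genes.

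The heavy chain Slc3a2 (CD98) is shared by the light chains Slc7a5, Slc7a6, Slc7a7, Slc7a8 and Slc7a11, among others. It had 20.6, 37.3 and 43.2 TMM-scaled CPM in the newborn type and 62.1, 91.3 and 118 in the adult type, without overlap, and its second probe past the filter was apart in the same direction. Slc7a8, a light chain for large and small neutral amino acids, had 0.684, 1.44 and 2.41 and 5.38, 6.94 and 9.14, a 4.82-fold difference of the medians. Slc7a5, the other large neutral light chain and a carrier of leucine into growing cells, overlapped at 1.33 to 4.39 and 3.00 to 4.56. The Slc7a8 to Slc7a5 count ratio was 0.197 to 1.421 in the newborn type and 1.419 to 3.05 in the adult type, with 0.653 and 1.94 at the median. The classes thus overlapped narrowly for this ratio. Slc7a8 was higher under all 4 scalings, whereas Slc3a2 was lower with the total count, at -0.54 (log2).

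Slc7a6, a light chain that exchanges cationic for neutral amino acids, had 6.00, 9.15 and 11.3 in the newborn type and 12.1, 18.03 and 26.3 in the adult type, and its sign depended on the scaling, at 1.03 (log2) with TMM and -0.84 with the total count. Its relative Slc7a7 overlapped at 0.731 to 2.50 and 0.304 to 1.95. The Slc7a6 to Slc7a7 count ratio overlapped as well, at 3.38 to 12.5 and 6.23 to 57.7. Slc7a11 is the light chain of the cystine and glutamate exchanger that feeds glutathione synthesis. It had 2.05, 3.18 and 6.03 in the newborn type and 7.37, 13.4 and 18.5 in the adult type, 4.21-fold higher by the medians and 2.20 (log2) above the median probe. Its sign was the same under the 4 scalings, by only 0.14 with the total count. The Slc7a11 to Slc3a2 count ratio overlapped between the classes, at 0.065 to 0.157 and 0.1045 to 0.204.

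Some genes that cells raise in amino acid shortage, Slc7a11 among them, are known to carry a composite element for Atf4 and C/EBP proteins. The stretch of the Slc7a11 promoter from base -100 to base -1 before its start is shown because its 2 matches to that element lie within it (RefSeq, GRCm38.p6, chr3:50443614-50443713, minus strand, written 5′ to 3′, capitals mark the first 8 bases of each match to TGATGNAAN on the strand it lies on).

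Slc7a11: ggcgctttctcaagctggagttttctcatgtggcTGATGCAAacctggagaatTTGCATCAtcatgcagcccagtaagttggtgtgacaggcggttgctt

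The motif TGATGNAAN was searched on both strands of windows from 250 bases before to 50 bases after each start. It was in 3.95% of 32851 RefSeq promoters and in 6 of 68 promoters of members (8.82%), for 47 of the 66 genes with a promoter in the table. The table held 17 promoters for 11 of the 16 named members and none for Slc38a1, Slc43a3, Slc6a15, Slc7a2 and Slc7a3. Of these 17, 1 held the motif, that of Slc7a11, in opposite orientations starting at bases -66 and -48. Slc7a7 and Slc1a4 held it too, and both overlapped between the classes. A match describes letters and no binding was measured.

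Among the cationic carriers, Slc7a3 differed and its relatives less so. Slc7a3, an arginine and lysine carrier of the CAT family, had 1.75, 2.87 and 4.99 in the newborn type and 8.84, 12.9 and 17.4 in the adult type, 4.49-fold higher by the medians (2.28 log2 above the median probe), with the same sign under 4 scalings. Slc7a1, the CAT member found in most tissues, overlapped at 9.07, 11.5 and 14.8 and 13.7, 16.2 and 20.8, and so did Slc7a2, at 6.18, 10.1 and 13.6 and 9.87, 13.7 and 20.2. Both had a sign that depended on the scaling, at 0.47 and 0.46 (log2) with TMM and -1.40 and -1.41 with the total count. The Slc7a3 to Slc7a1 count ratio was 0.176 to 0.375 in the newborn type and 0.4927 to 1.16 in the adult type. Slc7a4 overlapped at 1.85 to 3.97 and 3.88 to 8.09, and Slc7a10, a light chain for small neutral amino acids, and Slc7a14 were under 1 TMM-scaled CPM in every library.

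In the sodium and chloride coupled SLC6 family, Slc6a15, a carrier of proline and branched-chain amino acids, had 0.265, 0.943 and 2.52 in the newborn type and 3.34, 5.53 and 9.56 in the adult type. The medians differed 5.87-fold, its second probe was apart in the same direction, and the sign was the same under 4 scalings. Slc6a9, the glycine transporter GlyT1, had 3.69, 5.42 and 7.58 and 10.8, 13.9 and 23.6, with -0.48 (log2) on the total count scale against 1.39 with TMM. The other SLC6 members past the filter, Slc6a4, Slc6a6, Slc6a8, Slc6a12 and Slc6a13, had medians of at most 1.97 in either class. The probes of Slc6a8, the creatine transporter, disagreed in sign, with log2 differences of 0.15, 0.64 and -1.03 on the TMM scale.

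Slc43a3 stands in a family of large neutral amino acid carriers but is known as a purine nucleobase transporter. It was lower in the adult type, at 5.99, 11.01 and 12.9 against 14.7, 19.5 and 32.5 in the newborn type, under all 4 scalings and without overlap. Of its relatives Slc43a1 and Slc43a2, both large neutral amino acid carriers, the medians were 1.11 and 0.573 in the newborn type and 0.409 and 0.151 in the adult type, and their ranges overlapped. Among the proton coupled carriers, the lysosomal Slc36a1 was apart but differed less than 2-fold, at 1.80, 2.68 and 3.51 and 3.52, 4.00 and 6.62, and Slc36a4 overlapped at 4.74 to 10.6 and 3.11 to 9.96. The glutamate transporter Slc1a3, the acidic carrier that passed the filter, overlapped by its main probe at 2.37 to 7.56 and 7.19 to 11.04. The peptide transporters Slc15a2 and Slc15a4 were at most 2.70 in any library.

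**Figure D3:**
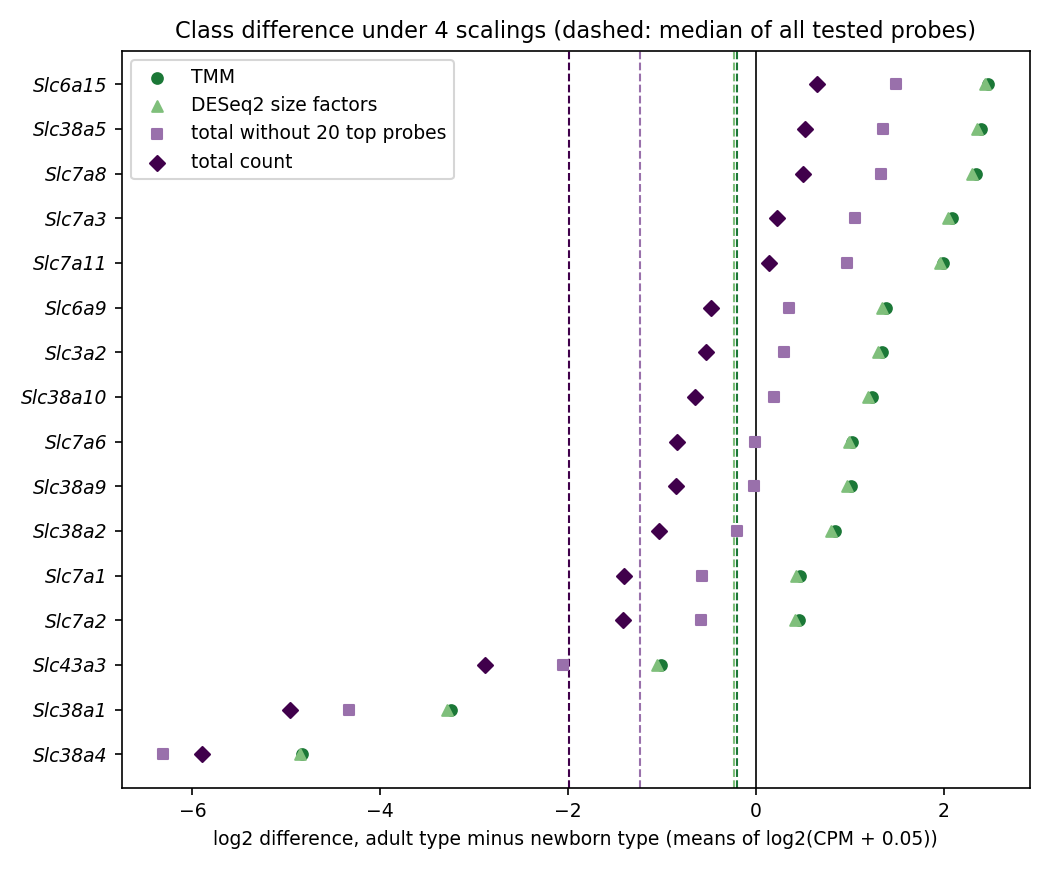
Difference of each named transporter between the classes under 4 scalings (x axis, adult type minus newborn type, means of log2(CPM + 0.05); y axis, gene), with dashed lines at the median of all 17676 probes under the same scaling. The dashed lines run from -0.20 (TMM) to -1.99 (total count); 5 genes lie to the right of 0 under all 4 scalings, 3 lie to the left, and 8 cross 0. The position of Slc38a4 depends on the pseudocount, since most adult type libraries hold no count.

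Within a class the members also varied from library to library. Among probes with at least 20 counts in every library of the class, the largest ratio of highest to lowest library in the newborn type was 3.90 for a minor probe of Slc1a3, followed by 3.31 for Slc7a5, 3.19 for the main probe of Slc1a3, 2.95 for Slc7a11 and 2.84 for Slc7a3. In the adult type the ratios were 4.52 for Slc1a5, 3.20 for Slc36a4, 2.86 for Slc6a15 and 2.51 for Slc7a11. TCDD female pup 6, the adult type library with the largest TMM factor (0.582), had the highest Slc1a5 and Slc38a10 of that class. Between libraries labelled dam and pup in the newborn type (4 against 10), 0 of 52 member probes were apart, as were 0.277% of all probes, and in the adult type (4 against 4) 2 of 52 were, Slc7a5 and Slc6a9, as were 3.16% of all probes.

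Genes that act with these transporters are described from lists chosen with earlier results known. Of 21 amino acid response genes past the filter, 8 were higher and apart in the adult type on the TMM scale and 0 were lower, with a median of 0.71 (log2), against 8.18% and 11.2% of all probes. With the total count 0 were higher and apart, 6 were lower and the median was -1.15, against 0.39% and 64.9% of all probes. Asparagine synthetase (Asns) had 45.4, 55.6 and 71.9 in the newborn type and 116, 177 and 207 in the adult type. The transcription factor Atf4 had 47.0, 62.9 and 79.3 and 96.3, 121 and 226. With the total count Asns and Atf4 overlapped and were lower by the medians, at -0.34 and -0.92 (log2). Other genes of this list overlapped on the TMM scale, among them Trib3 (-1.14), Atf3 (-0.05), Ddit3 (0.33) and Ddit4 (0.14). Of 18 aminoacyl tRNA synthetases 7 were higher and apart and 0 lower (median 0.55), and of 20 genes of mTORC1 sensing 3 were higher, Rheb, Rragd and Tsc2, and 0 lower (median 0.38). With the total count, 0 genes of these lists were higher and apart and 11 of each were lower, with medians of -1.315 and -1.47. Of 11 other transporters and partners outside the member families, 0 were higher and apart and 3 were lower with TMM (median 0.24), and 0 and 6 with the total count (median -1.59), so the median and the counts differ in sign on the TMM scale. Among those lower, Cltrn, a partner that SLC6 carriers of the kidney need at the surface, was lower in the adult type under both scalings, at 0.422, 0.879 and 1.95 against 8.30, 9.71 and 12.1 in the newborn type.

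The tests concerned the TCDD label, which did not choose the members. Over all 22 libraries with library class as a term, edgeR's quasi-likelihood test with Benjamini-Hochberg adjustment called 0 of 17676 probes (0%), 360 had an unadjusted p under 0.05, and DESeq2 also called 0. Among the 52 member probes 0 were called and 1 had an unadjusted p under 0.05. This was Slc7a3, at 0.42 ± 0.16 (log2, TCDD against control, SE; adjusted p = 1). It had 1.75, 2.70 and 4.42 TMM-scaled CPM in the 8 control and 2.00, 3.565 and 4.99 in the 6 TCDD libraries of the newborn type, and 8.84 and 10.3 in the 2 control and 10.2, 14.4 and 17.4 in the 6 TCDD libraries of the adult type. The label groups overlapped in both classes. The next smallest p-values were those of Slc38a3 by its minor probe (0.745 ± 0.46, with 0.15 ± 0.16 for its main probe), Slc38a9 (0.19 ± 0.13) and Slc43a1 (0.52 ± 0.34), each with an adjusted p of 1 by the same edgeR test.

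**Figure D4:**
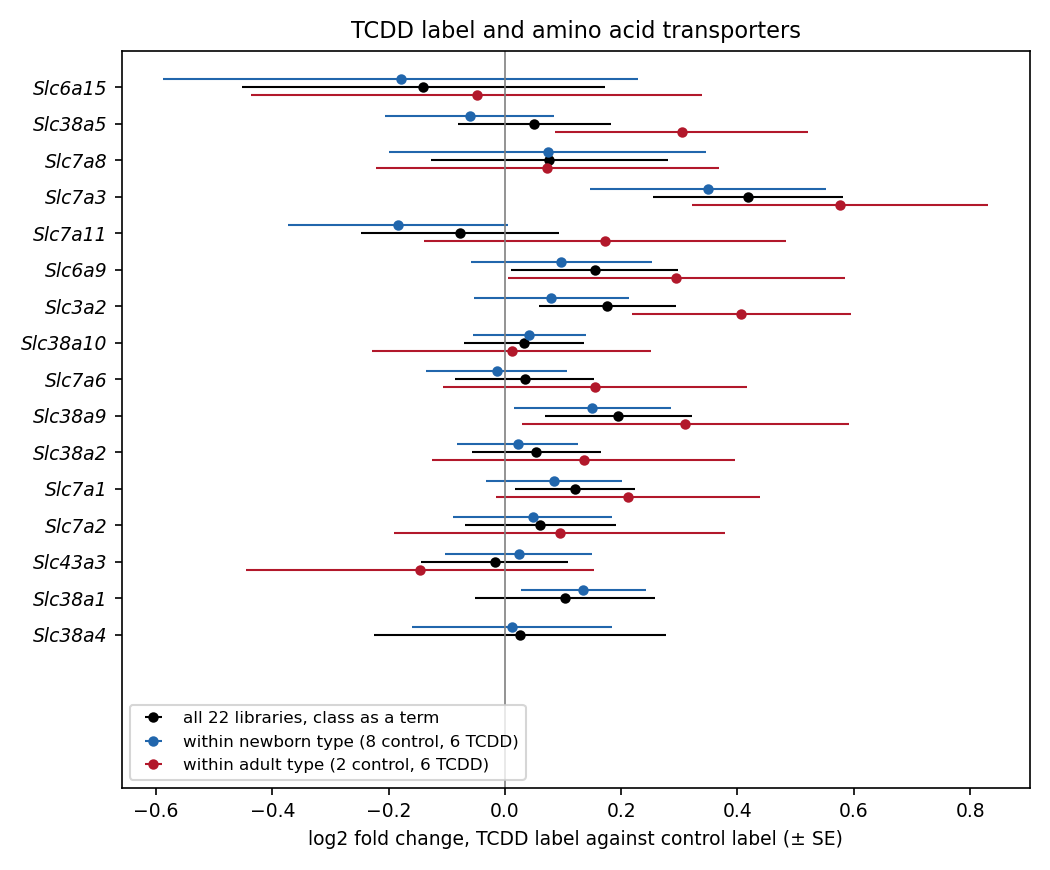
Log2 fold change ± SE of each named transporter between TCDD and control labels from edgeR (x axis; y axis, gene), over all 22 libraries with class as a term (black), within the newborn type (blue, 8 control and 6 TCDD) and within the adult type (red, 2 control and 6 TCDD). No point passed the adjusted threshold of 0.05. Slc7a3 lies to the right of 0 in all 3 fits, and so do Slc38a9, Slc6a9, Slc3a2, Slc7a1, Slc38a2, Slc7a2, Slc7a8 and Slc38a10. The fit over 22 libraries holds the libraries of both other fits. Slc38a1 and Slc38a4 were under the low-count filter within the adult type.

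Within the newborn type edgeR called 0 of 17109 probes (0%, with 554 at an unadjusted p under 0.05) and 0 of 49 member probes, none of which had an unadjusted p under 0.05. The smallest p-values were those of the peptide transporters Slc15a2 (-0.47 ± 0.27) and Slc15a4 (-0.80 ± 0.45), of Slc7a3 (0.35 ± 0.20) and of a minor probe of Slc6a8 (-0.59 ± 0.37), whose main probe had 0.07 ± 0.21. Within the adult type, with only 2 control libraries, edgeR called 0 of 13513 probes (0%, 388 unadjusted) and 0 of 35 member probes, of which 3 had an unadjusted p under 0.05. These were Slc36a4 (-0.75 ± 0.30), Slc7a3 (0.58 ± 0.25) and Slc3a2 (0.41 ± 0.19), each with an adjusted p of 1, and Slc38a5 came next at 0.30 ± 0.22.

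Slc36a4, a high-affinity carrier of proline and tryptophan, had 7.63 and 9.96 TMM-scaled CPM in the 2 adult type control libraries and 3.11, 5.575 and 6.03 in the 6 TCDD libraries, without overlap, while in the newborn type it had 4.74 to 9.19 and 6.365 to 10.6. The share of all probes apart in this split is not given. Both adult type controls were labelled dam, while the TCDD libraries were 2 dams, 1 female pup and 3 male pups. Stage and sex labels therefore differ along with the TCDD label here. The interaction of label and class, fitted with edgeR over 22 libraries, called 0 of 19209 probes (0%, 1523 unadjusted) and 0 of 55 member probes, of which 2 had an unadjusted p under 0.05. For Slc36a4 the difference between the classes was -0.85 ± 0.30 (adjusted p = 0.479), and for the taurine transporter Slc6a6 it was -3.11 ± 1.32 (adjusted p = 0.549) at levels under 1 TMM-scaled CPM. The Slc6a6 value turned to 3.15 without control dam 7, which held 7 counts, while control dam 5, the other adult type control, held 0. The next smallest p-values belonged to minor probes of Slc43a1 and Slc43a3 with 0 counts in both adult type control libraries, so no fold is given for them, and the main probe of Slc43a1 had 1.21 ± 1.05. DESeq2 called 23 probes in this interaction, none of them a member.

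In the dams as labelled, each treatment held 2 newborn type and 2 adult type libraries, and the fit had no class term. The class difference therefore entered the spread: Slc38a5 had an SE of 0.77 here and 0.13 over 22 libraries with class as a term. With that limit, edgeR called 0 of 15594 probes (0%, 150 unadjusted) and 0 of 42 member probes. Slc1a5 had the smallest p among them (-0.57 ± 0.24; adjusted p = 1), followed by Slc36a4 (-0.32 ± 0.23), Slc38a9 (0.43 ± 0.39) and Slc38a11 (-0.96 ± 1.03, or 0.47 without control dam 4). In the female pups it called 0 of 17513 probes (0%, 299 unadjusted) and 0 of 50 member probes, with 2 unadjusted, Slc7a3 (1.20 ± 0.44; adjusted p = 0.996) and a minor probe of Slc38a11 (-2.225 ± 0.95, with -0.95 ± 0.67 for its main probe), then Slc6a9 (0.89 ± 0.44) and Slc7a14 (-1.655 ± 0.85). With library class as a term, the Slc7a3 value in female pups was 0.75. TCDD female pup 6 is the only adult type library there, so the class term rests on it alone. DESeq2 called 0 probes in both.

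In the male pups as labelled, edgeR called 0 of 16176 probes (0%), but 2703 had an unadjusted p under 0.05, and so did 17 of 46 member probes. All 3 control male pups were of the newborn type and 3 of 4 TCDD male pups were of the adult type, so the label and the class cannot be told apart for most of these libraries. Slc6a15 had 0.689, 0.820 and 0.835 TMM-scaled CPM in the control male pups, 2.52 in TCDD male pup 6 and 4.59, 5.44 and 9.56 in TCDD male pups 10, 11 and 8. It was the member with the smallest p (2.80 ± 0.50; adjusted p = 0.273), and its second probe came next, with 0, 0 and 2 counts in the control male pups and 7 to 30 in the TCDD male pups, too few in the controls for a fold.

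Slc7a3 had 2.42, 3.63 and 4.42 in the control male pups, 4.20 in TCDD male pup 6 and 12.7, 17.2 and 17.4 in the other 3 TCDD male pups, at 1.88 ± 0.49 (adjusted p = 0.273). Slc38a10 had 41.97, 44.0 and 52.8, then 55.2, and then 96.8, 105 and 111, at 0.999 ± 0.27. The newborn type library TCDD male pup 6 lay near the controls for both. With library class as a term the differences were 1.66 for Slc6a15, 0.26 for Slc7a3 and 0.24 for Slc38a10, each with an adjusted p of 1. Without TCDD male pup 6, which left 3 newborn type controls against 3 adult type TCDD libraries, edgeR called 6451 probes, and member probes were among them. The number of probes tested in that refit is not given here, so no share of members is stated. With the 7 libraries DESeq2 called 514 of 16176 probes and 8 of 46 member probes. The 8 were probes of Slc6a15, Slc7a3, Slc38a10, Slc38a9 and Slc7a8 and 3 probes of Slc38a5. Label and class cannot be told apart in the calls of both fits.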

How the data were processed

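Whole pancreas RNA was profiled with a TempO-Seq mouse transcriptome panel on an Illumina NextSeq500, per the labels' protocols. The submitters' processing notes list bcl2fastq 2.17.1.14. An aligner and genome build were not given in the sources used here. The authors deposited 1 table of raw counts for 30146 probes in 22 libraries. Counts are reads without molecular identifiers, so floors (3 counts) cover counting error only. Animals are separate, and any 2 libraries of a group differed by more than sampling noise (chi-square per degree of freedom at least 7.47).

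The members, lists and tests were chosen with earlier results of these data known. Each gene is represented by its probe with the highest mean level. Named members had a median of at least 10 TMM-scaled CPM in 1 class, or class ranges that did not overlap with medians 2-fold apart. In each test the 4 member probes with the smallest p are named, and within each class those with the largest spread; a minor probe is called so. A class range is apart where every library of 1 class exceeds every library of the other. Tests used R 4.3.3 with edgeR 4.0.16 (filterByExpr, TMM, quasi-likelihood test, Benjamini-Hochberg over all probes tested, threshold 0.05), with DESeq2 1.42.0 and limma 3.58.1 as alternatives. The edgeR code was run on simulated counts for the fit over 22 libraries and for the dams only. Those counts had no class difference and the same spread for every probe, so they do not give the power or error of the tests reported here. The SE of an edgeR fold change was taken as its size divided by the square root of the F statistic of the test. Such an SE is approximate and unreliable for fold changes near 0. All 66 symbols matched the RefSeq table. A few genes are not reported here.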

Additional observations from a re-analysis of the deposited data

Results flagged for a closer look

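Slc38a10 stood out in 1 adult type library: TCDD female pup 6 had 182.6 TMM-scaled CPM against 126 in the next highest of the 8, a gap of 0.65 of the class range. The same library also stood apart among the 6 adult type libraries with the TCDD label, at 182.6 against 110.9. Slc43a3 was highest in control female pup 4, at 32.47 against 21.29 in the next of the 8 newborn type control libraries. By design such a gap is met in about 1 of 20 groups, and 64 groups were looked at, which gave these 3. No reason was tested.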

How the results depend on the processing

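The number of member probes higher and apart in the adult type was 18 with TMM, 0 with CPM of the total count and 5 without the 20 most abundant probes. Of all probes, 8.18%, 0.39% and 1.17% were higher and apart under these scalings. The number of member probes lower and apart was 3, 14 and 7, against 11.2%, 64.9% and 40.3% of all probes. With CPM of the total count the log2 difference changed sign to -0.64 for Slc38a10, -1.03 for Slc38a2, -0.86 for Slc38a9, -0.54 for Slc3a2, -0.48 for Slc6a9, -1.40 for Slc7a1, -1.41 for Slc7a2 and -0.84 for Slc7a6. Without the 20 most abundant probes it changed sign to -0.20 for Slc38a2, -0.024 for Slc38a9, -0.57 for Slc7a1, -0.58 for Slc7a2 and -0.0085 for Slc7a6. The low-count filter, DESeq2 size factors, summed probes and the libraries with matching stage labels moved none of these counts by over 1.5 times.

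For the TCDD label, 72 of 81 alternative fits called 0 probes. Leaving out 1 library gave 0 to 1 calls over 22 libraries (1 without control dam 5) and 0 to 6451 in male pups (6451 without TCDD male pup 6). For the interaction only control libraries were left out, and no TCDD library was. This gave 0 to 46 calls (46 without control dam 5, 3 without control dam 7, 4 without control male pup 4). The interaction called 23 probes with DESeq2 and 9 without the filter. Male pups called 514 with DESeq2 and 3 without the libraries whose stage label conflicts, which left 1 TCDD library assumed to vary like the controls. Slc6a6 in the interaction ranged from -4.06 to 3.15 (without control dam 7), and Slc38a11 in dams from -1.67 to 0.47 (without control dam 4). The cause was not tested. With the litter as a replicate block (limma-voom, random effect, correlation 0.0143) 0 probes were called. Control and TCDD groups share no litter number, so no pair could be formed. Low counts limit Slc38a1, Slc38a4 and other members in the adult type, and a p above the threshold does not show that values were alike.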
